A study of Schizosaccharomyces pombe with 5 samples.

Results

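The 6 genes described here encode the core of protein entry and folding in the endoplasmic reticulum (ER) of the fission yeast Schizosaccharomyces pombe. They were chosen by name, as 6 of the 6727 genes counted: the lumenal chaperone bip1 (SPAC22A12.15c), the protein disulfide isomerase pdi1 (SPAC1F5.02), the calnexin cnx1 (SPAC3C7.11c), the translocon subunits sec61 (SPBC354.02c) and sec63 (SPBC36B7.03), and the unfolded protein sensor ire1 (SPAC167.01). The RefSeq products matched these names, with ire1 entered as the kinase Ppk4. All 6 passed the filter on low counts.

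Every library came from formaldehyde-treated wild-type (WT) cells of strain yAS99, grown in YES medium at 32 °C. The Slr1p group held 2 libraries of RNA brought down with an antibody to Slr1p (AB2756), a homolog of the RNA-binding protein LARP1. The control of the immunoprecipitation was 1 library made with non-immune rabbit IgG, and the input group held 2 libraries of total RNA extracted with hot phenol. Both pairs are biological replicates by their titles. No library from cells without Slr1p is analysed here, so the signal of the antibody in the absence of its target was not measured.

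Proteins bound for secretion or for membranes enter the ER through the Sec61 channel. Sec63 recruits the Hsp70 chaperone BiP to the channel, and BiP then pulls on and folds the incoming chain. Pdi1 forms and rearranges disulfide bonds, and calnexin holds glycoproteins that still carry a glucose. When unfolded proteins build up, Ire1 is activated. In fission yeast its nuclease is known to cut many ER-bound mRNAs, which are then degraded, and to cut the 3' untranslated region (UTR) of bip1 mRNA, which is then stabilised. In animals LARP1 is known for binding mRNAs that start with a run of pyrimidines.

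The annotated 5' ends of the 6 mRNAs are shown because the start of an mRNA is the part that LARP1 is known to recognise in animals. Each line gives the first 20 bases, 5' to 3', from RefSeq assembly ASM294v3, and capitals mark the longest run of C and T in those bases (the earliest of equals).
bip1: atccaaaaccaactaTTCTa
pdi1: gtcaacaaccaactaCTTCC
cnx1: atcaactacaccaCCCaaca
sec61: aagaaccagcaagTTTagtt
sec63: gCCTTTaccaaacaacttgc
ire1: actacctaCTTCaaatgtat

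A pyrimidine start was taken as at least 5 bases of C or T in a row (any mix of the letters C and T, searched on the transcribed strand), beginning at base 1, 2 or 3. By this rule only sec63 had one, from base 2 to 6, as did 9.28% of the 5078 annotated mRNAs among the genes counted. In pdi1 a run of 5 lay at bases 16 to 20, and none of the 6 annotated starts was itself C or T. The annotated start need not be the one used in these cells.

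The starts lie on chromosome I on the minus strand for bip1 (chrI:1185466-1185485), pdi1 (chrI:293786-293805), cnx1 (chrI:2088305-2088324) and ire1 (chrI:1562799-1562818). That of sec61 lies on the minus strand of chromosome II (chrII:546995-547014), and that of sec63 on its plus strand (chrII:2387072-2387091). All 6 transcripts were longer than the median mRNA of 1680 bases. They measured 1808 bases for sec61, 1827 for pdi1, 1932 for cnx1, 2185 for sec63, 2793 for bip1 and 3386 for ire1. The bip1 transcript had the longest annotated UTRs of the 6, with 182 bases at the 5' end and 619 at the 3' end, against medians of 79 and 243 over mRNAs. Its gene and those of pdi1 and cnx1 had 0 introns, that of ire1 had 1, that of sec63 had 2 and that of sec61 had 5.

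None of the 6 transcripts shared an exact stretch of 50 bases with any other place in the genome, the length of 1 read. The strand setting of the authors' counting is not given in the sources used here. The ends of cnx1, sec61 and ire1 overlap a neighbour on the other strand by 41, 86 and 93 bases. On its own strand sec61 overlaps the noncoding gene SPNCRNA.1369 by 19 bases. That gene had 881 and 870 counts in the Slr1p libraries, 135 in IgG and 1059 and 1066 in input, against 6003 and 5578, 812, and 15911 and 15295 counts of sec61 in the same groups. The noncoding gene SPNCRNA.555 runs against 2087 bases of ire1 and had between 17 and 27 counts in each library, against 557 to 2800 counts for ire1 itself.

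Libraries held between 62802923 and 65859940 gene counts in the Slr1p and input groups and 12882920 in IgG. The IgG library also stood apart in content: 4 mitochondrially encoded mRNAs made up 4.73% of its counts (95% Wilson interval 4.72 to 4.74%). In the other libraries their share was no more than 0.00154% (0.00145 to 0.00164%). The part of this in the results against IgG was not tested. Levels are given below as CPM, counts scaled by the TMM method to 1e6 per library, and compared between genes only as CPM per kb of transcript. A CPM is a share of a library, so all changes are relative to the other RNAs in it. In bulk libraries, fewer cells holding an mRNA and less of it per cell cannot be told apart.

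In input, where the level stands for the mRNA in the cell, the 3 lumenal or lectin chaperone genes were far above the translocon and sensor genes. Per kb, cnx1 came first at 447.9 ± 11.5 CPM per kb (SD, n = 2), followed by bip1 at 385.2 ± 0.105 and pdi1 at 332.7 ± 6.76 CPM per kb. The median of 4981 mRNAs was 22.5 CPM per kb, and cnx1 placed 320th and pdi1 404th among them, with bip1 between. Below them were sec61 at 138.3 CPM per kb (147.0 and 129.7 in the 2 libraries), sec63 at 54.5 ± 4.01 and ire1 at 13.1 ± 0.653, the only one under the median of mRNAs. Each neighbouring pair in this order was separated, with no overlap between replicates.

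The order was not the same in the immunoprecipitates. In the Slr1p libraries cnx1 (215.4 ± 5.46 CPM per kb) and pdi1 (192.7 ± 0.287) came before bip1 (66.6 ± 0.404), which stood close above sec61 (50.4 ± 0.317). Then came sec63 (25.3 ± 0.879) and ire1 (8.34 ± 0.390; SD, n = 2 for each). In the single IgG library bip1 led at 204.0 CPM per kb, before cnx1 at 162.4 and pdi1 at 111.3. There sec61 and sec63 were close, at 32.6 and 30.7 CPM per kb, and ire1 was at 11.9. The rank of bip1 among the 4981 mRNAs was 1172nd in the Slr1p libraries and 452nd in IgG.

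**Figure D1:**
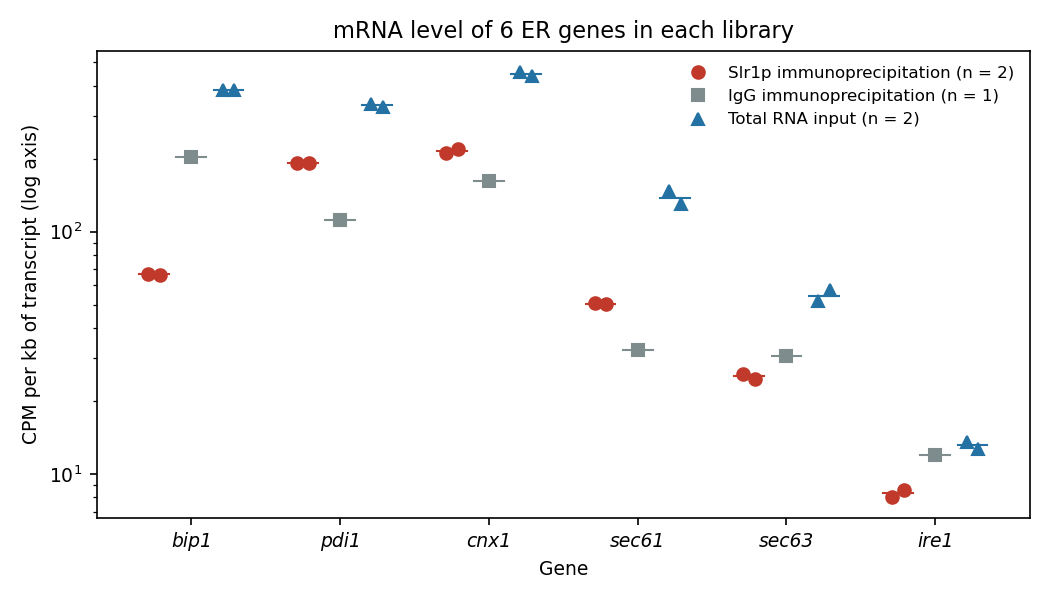
Level of each of the 6 mRNAs in CPM per kb of transcript (log axis) in the Slr1p (n = 2), IgG (n = 1) and input (n = 2) libraries. Points are libraries and lines are group means. The Slr1p points of all 6 genes lie below the input points, and those of bip1, sec63 and ire1 also lie below IgG.

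The first comparison asks whether these mRNAs were enriched with Slr1p over their share of total RNA. All 6 were lower in the Slr1p immunoprecipitation than in input, and none was higher. Their log2 fold changes ran between -2.53 for bip1 and -0.65 for ire1, with a median of -1.08, against a median of 0.035 over all 6376 genes tested. Over all genes 34.2% were called lower and 35.0% higher by the edgeR quasi-likelihood test at an adjusted p under 0.05. Both Slr1p values lay below both input values for all 6, as they did for 41.3% of all genes.

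The mRNA of bip1, the only Hsp70 of the ER lumen among the 6, had the largest difference. It stood at 186.8 and 185.2 CPM in the Slr1p libraries, 569.7 CPM in IgG and 1076.2 and 1075.8 CPM in input. Replicates differed by under 2 CPM in both groups, and each group was clear of the others. The log2 fold change against input was -2.53 (SE 0.15, edgeR adjusted p = 1.38e-09), which puts the Slr1p level at 17.3% of input. It was the 162nd lowest of the 6376 fold changes.

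The translocon genes came next. The mRNA of sec61, the channel itself, stood at 91.5 and 90.7 CPM in the Slr1p libraries, 59.0 CPM in IgG and 265.8 and 234.5 CPM in input. Input was highest and IgG lowest, with no overlap. Its log2 fold change against input was -1.46 (SE 0.12, edgeR adjusted p = 4.34e-08), or 36.4% of the input level.

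The mRNA of sec63, the J-domain subunit that brings BiP to the channel, stood at 56.6 and 53.8 CPM in the Slr1p libraries, 67.2 CPM in IgG and 112.8 and 125.2 CPM in input. Here IgG lay a little above the Slr1p libraries and well under input. The log2 fold change against input was -1.11 (SE 0.12, edgeR adjusted p = 6.99e-07). This gene with the pyrimidine start lay within the range of the other 5.

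Of the folding enzymes, cnx1 stood at 408.8 and 423.7 CPM in the Slr1p libraries, 313.8 CPM in IgG and 881.1 and 849.7 CPM in input. Its log2 fold change against input was -1.06 (SE 0.15, edgeR adjusted p = 9.01e-06). Both immunoprecipitations were well below input, with IgG the lower. The mRNA of pdi1 stood at 351.6 and 352.4 CPM in the Slr1p libraries, 203.4 CPM in IgG and 616.6 and 599.1 CPM in input. It fell less against input, at -0.79 on the log2 scale (SE 0.13, edgeR adjusted p = 7.56e-05), and had the same order of groups as cnx1 and sec61.

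The sensor ire1 was the least abundant and the least changed. It stood at 27.3 and 29.2 CPM in the Slr1p libraries, 40.4 CPM in IgG and 46.0 and 42.9 CPM in input. Its IgG value lay close under the input values, while the Slr1p libraries were clearly lower. The log2 fold change against input was -0.65 (SE 0.12, edgeR adjusted p = 1.53e-04), so that the Slr1p level was 63.5% of input.

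These 6 calls were also made in each of the 11 alternative fits, among them the fit without IgG and the fits that corrected every library for the length and GC content of the transcripts. After that correction bip1 was at -2.37 and the median of the 6 at -0.89. Among the 1755 mRNAs from 1.8 to 3.4 kb, the range that holds all 6, the median log2 fold change was -0.21, and 45.5% were called lower and 26.7% higher.

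**Figure D2:**
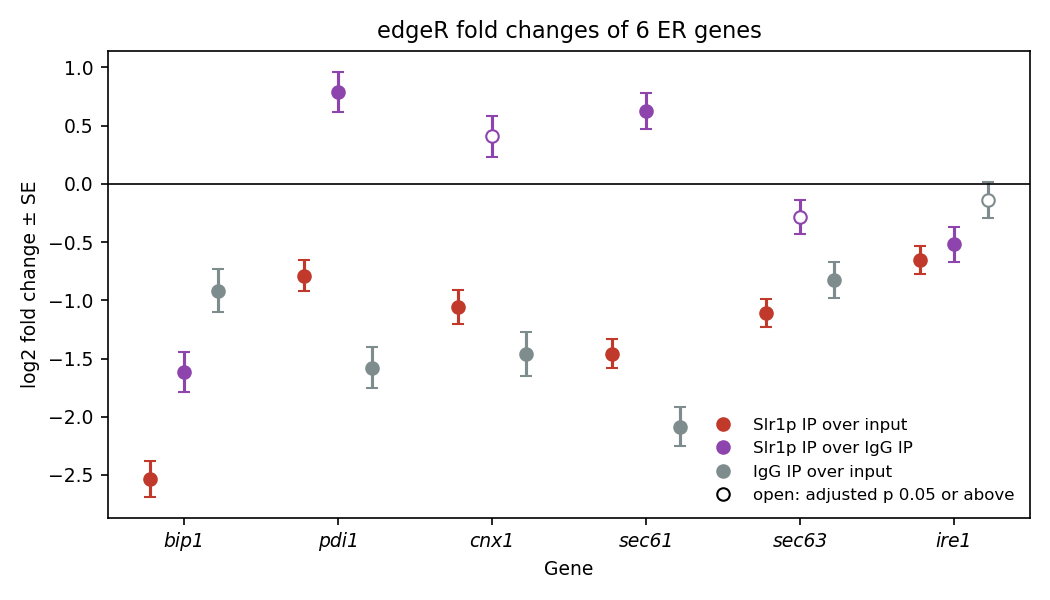
log2 fold changes with standard errors (edgeR) of the 6 mRNAs in 3 comparisons, where values above 0 are higher in the group named first and open points had an adjusted p of 0.05 or above. All 6 lie below 0 against input in the Slr1p immunoprecipitation, while against IgG they lie on both sides, from -1.61 for bip1 to 0.79 for pdi1.

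The second comparison asks which of these mRNAs exceeded the background of the immunoprecipitation. Against IgG the 6 genes split. The mRNAs of pdi1 and sec61 were higher after Slr1p immunoprecipitation, that of bip1 was lower, ire1 was called lower or higher depending on the correction for transcript length, and cnx1 and sec63 were not called. Over all genes 34.0% were called higher and 32.3% lower. The median of the 6 was 0.062, beside 0.072 over all genes tested. With library totals alone the median of the 6 was -0.057, beside -0.047 over all genes. After correction for length and GC these medians were 0.53 and 0.081. The IgG group had 1 library, assumed to vary like the others, and this comparison uses the same Slr1p libraries as the first.

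The value of bip1 was -1.61 (SE 0.17, edgeR adjusted p = 9.30e-07), which puts the Slr1p level at 32.7% of IgG. After correction for length and GC it was -0.86 (adjusted p = 1.01e-04), and over all alternatives it ran from -1.73 to -0.86. In the test over 5 libraries bip1 and ire1 were lower with Slr1p than in both controls, as were 14.1% of all genes. For ire1 the side against IgG depended on the correction for length and GC, as given below. The value of pdi1 was 0.79 (SE 0.17, edgeR adjusted p = 7.64e-04), and it was called in all 10 alternatives, at between 0.40, where abundance was corrected for too, and 0.83.

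The other values rested more on the choice of fit. That of sec61 was 0.63 (SE 0.16, edgeR adjusted p = 0.00234), and the call was lost with either Slr1p library left out, at 0.59 (adjusted p = 0.0667) without replicate 1 and 0.62 (adjusted p = 0.0563) without replicate 2. The value of ire1 was -0.52 (SE 0.15, edgeR adjusted p = 0.00697). After correction for length and GC, ire1 was higher in the Slr1p libraries instead, at 0.42 (adjusted p = 0.0380). The call of ire1 was also lost without Slr1p replicate 1, at -0.50 (adjusted p = 0.0927), and without replicate 2, at -0.58 (adjusted p = 0.0513). The values of cnx1 and sec63 were 0.41 (SE 0.18, adjusted p = 0.0566) and -0.28 (SE 0.15, adjusted p = 0.105) in the edgeR test. Both were called with either input library left out, cnx1 at 0.39 without replicate 1 and 0.41 without replicate 2, and sec63 at -0.30 without replicate 1 and -0.28 without replicate 2.

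Transcript length went with the difference from IgG across the whole transcriptome. Among mRNAs under 1 kb the median log2 fold change was 1.03 and 72.2% were called higher. From 1.8 to 3.4 kb the median was -0.48, with 9.12% called higher and 54.5% lower, and at 3.4 kb or longer it was -1.49. All 6 genes are in the class from 1.8 to 3.4 kb. The values of pdi1, sec61, cnx1 and sec63 lay above its median, that of ire1 lay close under it and that of bip1 lay well below. The class is wide, with sec61 and pdi1 at its short end and ire1 at its long end, so its median does not stand for their own lengths. After correction for length and GC the values were 0.83 for pdi1, 0.70 for sec61, 0.63 for cnx1, 0.42 for ire1, 0.047 for sec63 and -0.86 for bip1.

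**Figure D3:**
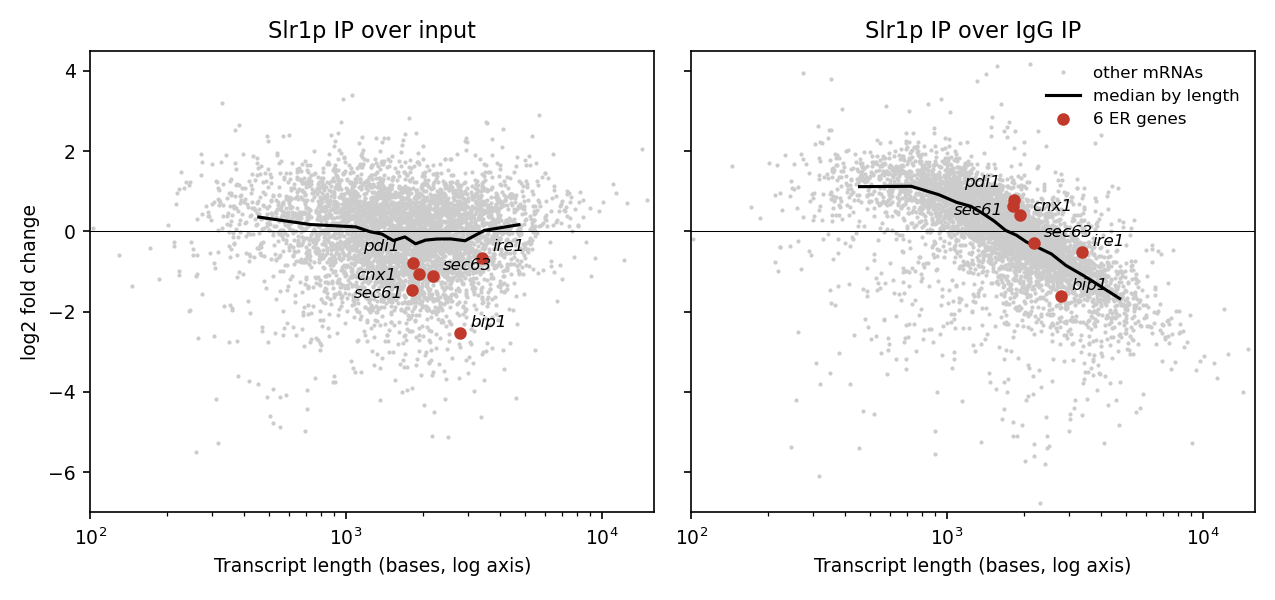
log2 fold change of each mRNA against its transcript length (log axis) for the Slr1p immunoprecipitation over input, left, and over IgG, right. The line joins medians of 15 length bins and red points are the 6 ER genes; 48 of 4981 mRNAs lie outside the axes on the right and 0 on the left. Against input the 6 genes lie under the line, while against IgG the line falls steeply with length and bip1 lies under it.

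The third comparison sets the single IgG library against input. That library differed from the others in content, as given above, and the part of this in the values below was not tested. The IgG library was lower than input for 5 of the 6 genes and higher for none, while over all genes 36.5% were called lower and 34.1% higher. The values were -2.08 for sec61 (SE 0.17), -1.58 for pdi1 (SE 0.18), -1.46 for cnx1 (SE 0.19), -0.92 for bip1 (SE 0.19) and -0.83 for sec63 (SE 0.15). The largest edgeR adjusted p of these 5 was 3.82e-04. The value of ire1 was -0.14 (SE 0.15, adjusted p = 0.436), and it was called at -1.05 (adjusted p = 3.18e-05) after correction for length and GC.

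Unlike the 6 genes, mRNAs of 1.8 to 3.4 kb tended to lie above input in IgG. Their median was 0.25, and 797 were called higher and 456 lower. The comparisons of Slr1p and of IgG with input share the input libraries, so their values are given side by side and not as separate support. Side by side, the log2 fold changes against input were -2.53 with Slr1p and -0.92 with IgG for bip1, and -0.79 and -1.58 for pdi1. For sec61 they were -1.46 and -2.08, and for cnx1 -1.06 and -1.46. For sec63 they were -1.11 and -0.83, and for ire1 -0.65 and -0.14.

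The other genes of ER protein traffic were taken from 4 lists, drawn up from gene symbols and product names. Of their 82 tested genes 55 were lower and 14 higher in the Slr1p immunoprecipitation than in input, with a median log2 fold change of -0.71. Only 5 were called higher with either Slr1p library left out, while 49 and 47 were lower. The background over all genes was 34.2% lower and 35.0% higher, with a median of 0.035. In IgG 65 of the 82 were lower than in input and 8 higher, with a median of -1.17, against 36.5% and 34.1% of all genes. The count of 8 was 5 with either Slr1p library left out.

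Enzymes that build and attach N-linked sugars, which calnexin reads, were nearly all lower with Slr1p than in input. Of 24 tested genes 21 were lower and 1 higher, with a median of -1.06. All 7 tested genes of the oligosaccharyltransferase, which moves the finished sugar onto the protein, fell. Its subunit swp1 stood at 102.0 and 100.1 CPM in the Slr1p libraries, 42.7 CPM in IgG and 504.8 and 411.5 CPM in input (log2 -2.18 against input). The largest fall of the list was that of gpt2, which starts the lipid-linked sugar, at -2.21 (SE 0.14, edgeR adjusted p = 1.70e-09). The gene that rose was dpm3, a subunit of the dolichol-phosphate mannose synthase, at 0.42 (SE 0.14, edgeR adjusted p = 0.0162), but it was not called with either Slr1p library left out or after correction for length and GC (0.065, adjusted p = 0.651). The 2 not called were alg13 (-0.34, adjusted p = 0.0505) and dpm1 (0.18, adjusted p = 0.187). In IgG all 24 were lower than in input, with swp1 lowest at -3.42. A further gene of the list, ost5, had at most 1 count in a library and was not tested.

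Of the 16 other folding genes 12 were lower and 3 higher with Slr1p than in input, with a median of -0.63. Among the disulfide enzymes 6 of 7 fell. The largest fall was that of pdi5, at -1.88 (SE 0.13, edgeR adjusted p = 6.55e-09), while pdi2 was at -0.97 and the oxidase ero11 at -0.94. Only pdi4 rose, at 0.90 (SE 0.14, edgeR adjusted p = 2.24e-05), and it stood at 20.3 and 19.7 CPM in the Slr1p libraries, 20.3 CPM in IgG and 10.5 and 10.9 CPM in input. The partners of BiP went different ways: the nucleotide exchange factor sil1 fell, at -1.52, the J-protein scj1 rose, at 0.59, and the J-protein erj5 was at 0.12 and not called (adjusted p = 0.357). In the calnexin cycle gls1, gls2 and gpt1 fell, at -0.63, -0.32 and -0.32, and gbs1, the beta subunit of glucosidase II, rose at 0.45. The calls of gls2, gpt1 and gbs1 were lost with either Slr1p library left out, with values of -0.38 to -0.29 for gls2 and gpt1 and 0.38 and 0.48 for gbs1, and the calls of gls2 and gpt1 also with library totals alone. These examples outside the largest changes were named after their values were seen.

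The 25 other translocation genes were mixed, with 12 lower and 7 higher with Slr1p than in input and a median of -0.24. The count of 7 was 3 with either Slr1p library left out. They are given below by machine, a grouping made after the values were seen, with no test between machines. Of 8 protein-coding genes of the signal recognition particle (SRP) and its receptor, which bring ribosomes to the ER, 5 were higher (SPAC23H4.07c, srp72, srp14, srp54 and srp21) and 0 lower by edgeR. The calls of srp54 and srp21 were lost with either Slr1p library left out. In IgG, srp72 and srp54 were also above input, at 1.21 and 0.69. With Slr1p against IgG these 2 were at -0.18 and -0.22 and were not called. SPAC23H4.07c, srp14 and srp21 were above IgG, at 1.35, 1.42 and 1.28. The RNA of the particle, srp7, was lower with Slr1p than in input, at -1.41 (SE 0.20, edgeR adjusted p = 1.32e-05). The highest of the 5 was the receptor subunit gene SPAC23H4.07c, at 112.8 and 118.7 CPM in the Slr1p libraries, 45.3 CPM in IgG and 49.5 and 56.2 CPM in input (log2 1.13 against input, SE 0.12, edgeR adjusted p = 6.44e-07).

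Partners of Sec61 and Sec63 were on both sides. The Sec61-like gene sec6102 fell, at -1.61, as did sec62 at -2.45 and sec66 at -0.95, while the small translocon subunit sbh1 rose at 0.44, a call lost with either Slr1p library left out and after correction for length and GC (0.25, adjusted p = 0.0796). The gamma subunit sss1 (0.27, adjusted p = 0.101) and sec67 (0.24, adjusted p = 0.0776) were not called by edgeR. Of 4 genes of the signal peptidase, which cuts the signal sequence off, sec11, spc1 and spc2 fell. Of 5 genes of the GET pathway, which inserts tail-anchored proteins, get1, get2, get3 and sgt2 fell, at between -1.22 and -0.27, and get4 rose at 0.35. The calls of get3, get4 and sgt2 were lost with either Slr1p library left out. The largest fall of the list was that of spc2, a signal peptidase subunit, at 0.640 and 0.829 CPM in the Slr1p libraries, 4.72 CPM in IgG and 18.4 and 17.4 CPM in input (log2 -4.60 against input, SE 0.20, edgeR adjusted p = 7.06e-11).

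Of 17 genes of ER-associated degradation, which returns misfolded proteins to the proteasome, 10 were lower and 3 higher with Slr1p than in input, with a median of -1.28. The ubiquitin ligase gene hrd1 was at -1.97 and the membrane protein gene der1 at -1.56, both named after their values were seen. The lowest was hrd302, at 0.625 and 0.504 CPM in the Slr1p libraries, 14.0 CPM in IgG and 9.80 and 10.8 CPM in input (log2 -4.18 against input, SE 0.21, edgeR adjusted p = 2.37e-10). The 3 that rose were ufd1 at 0.39, ubx2 at 0.37 and ubc7 at 0.34. None of these 3 was called with library totals alone or with either Slr1p library left out. The 4 genes not called by edgeR against input were hrd3, of the HRD ligase complex (-0.19), cdc48 (0.20), ubx3 (0.20) and cue1 (-0.061).

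Against IgG more of these genes were higher than lower. Of the 82 genes 49 were higher with Slr1p than in IgG and 11 lower, with a median of 0.62, beside 34.0% and 32.3% of all genes. The folding list had 6 of 16 higher and 3 lower, with a median of 0.030. With library totals alone 2 of its genes were higher and 2 lower, with a median of -0.089. Its median was -0.0093 without Slr1p replicate 1, 0.025 without replicate 2 and 0.31 after correction for length and GC. Fewer of its genes were called, in both directions, with either Slr1p library left out. The pooled count of 11 was 18 with either input library left out. After correction for length and GC 43 were higher and 10 lower. The SRP RNA gene srp7 had by far the lowest value, -10.94, at 2.99 and 2.91 CPM in the Slr1p libraries and 5808 CPM in IgG. In the other 3 lists the lowest values were those of hrd302 (-4.62), the glycoprotein glucosyltransferase gene gpt1 (-2.03) and alg11 (-1.18). The highest value of each of the 4 lists was that of get1 (1.95), ubc6 (1.66), ost4 (1.62) and pdi2 (0.91). They encode a receptor for tail-anchored proteins, a ubiquitin-conjugating enzyme of the ER, an oligosaccharyltransferase subunit and a disulfide isomerase.

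In the control itself, the lowest value of each list in IgG over input was that of swp1 (-3.42), get1 (-3.17), der1 (-3.01) and pdi2 (-1.88). The highest were srp7 (9.54), gpt1 (1.71) and cdc48 (0.55), the ATPase that pulls proteins out of the ER. After correction for length and GC gpt1 was at 0.0092 and cdc48 at -0.16, and neither was called. The call of cdc48 was also lost with either Slr1p library left out, at 0.56 (adjusted p = 0.101).

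**Figure D4:**
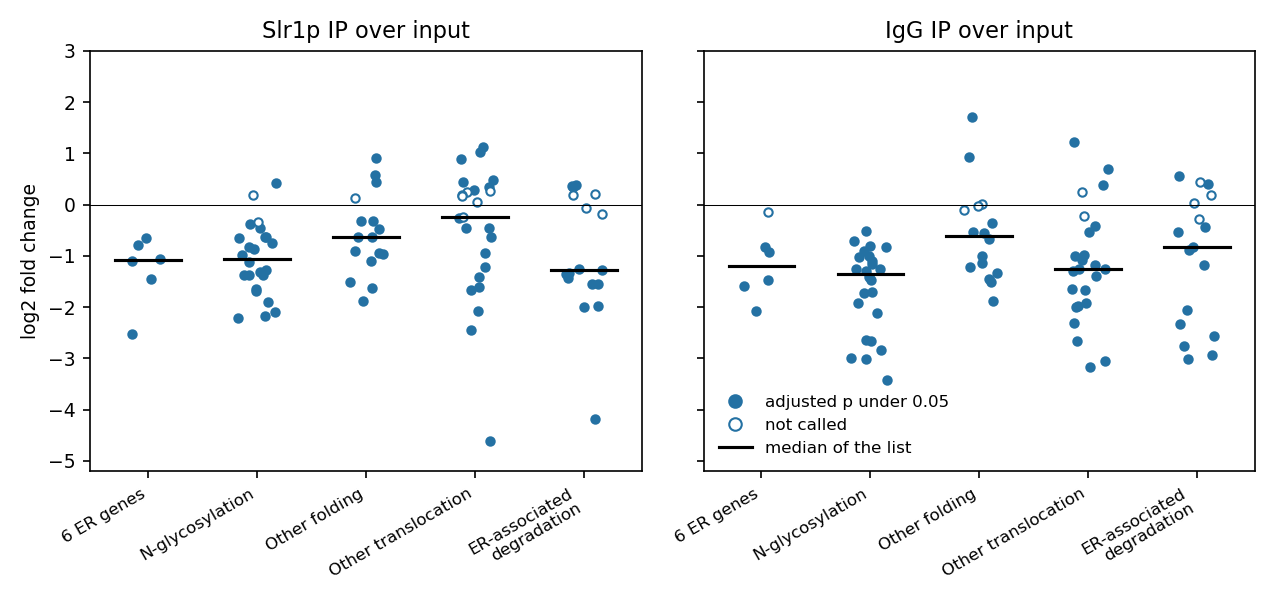
log2 fold change of each tested gene of the 6 ER genes and of the 4 lists, for the Slr1p immunoprecipitation over input, left, and IgG over input, right. Filled points had an adjusted p under 0.05 and bars are medians; srp7, at 9.54 on the right, lies above the axis. In both panels all list medians lie below 0, from -1.28 to -0.24 with Slr1p and from -1.36 to -0.61 with IgG.

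The genes most like each of the 6 in pattern were found by the Euclidean distance between log2 CPM values centred on the mean of the gene over the 5 libraries. Within the 6, pdi1 and cnx1 were closest, at a distance of 0.35, and bip1 was farthest from the rest, between 1.53 from sec63 and 2.22 from pdi1. Over all genes tested the nearest to bip1 were the kinase activator gene mob2 (0.15) and mug16 (0.18), and to sec61 they were npp1 (0.059) and the RNA polymerase II subunit gene rpb11 (0.060). The nearest to pdi1 were SPNCRNA.1397 (0.11) and wdr8 (0.13), and to cnx1 fmd1 (0.092) and smb1 (0.13). The nearest to sec63 were cmk2 (0.10) and rim2 (0.16), and to ire1 the transcription factor gene pap1 (0.095) and SPAC1039.04 (0.12). None of these 12 genes belongs to the 4 ER lists, which hold only 82 of the 6376 genes tested, so their absence says little. By its product name mug16 is implicated in vesicle-mediated transport.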

How the data were processed

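The deposited files hold the authors' whole-number read counts, with 1 file for each library and 1 value for each gene. Per the labels' protocols, the kit was the directional NEBNext Ultra II and reads were 50 bp paired-end. The tools named, per the submitters' processing notes, are HTSeq 0.6.1p2, STAR 2.6.0c, Trim Galore, FastQC 0.11.5 and bcl2fastq 2.20, without roles. The sources used here do not give the genome build, the annotation, how strand was counted or what became of reads that map to several places.

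RefSeq assembly ASM294v3 gave the names, the sequences and the length and GC content of transcripts; it may not be the authors' annotation. It held 6562 of the 6727 identifiers. The counts went into edgeR 4.0.16 under R 4.3.3: TMM scaling, filter by group (351 genes removed), 1 mean per group over all 5 libraries, quasi-likelihood test, Benjamini-Hochberg adjustment over 6376 genes, called under 0.05. With 2 residual degrees of freedom, the common biological variation was 0.101 (coefficient of variation). Standard errors are the fold change over the root of the F statistic. Intervals cover counting error only. Replicates differed by more than sampling noise, with a chi-square per degree of freedom of 44.4 for the Slr1p pair and 194.3 for input. P-values set each difference against the spread within the Slr1p and input pairs, moderated across genes with 13.5 prior degrees of freedom. The single IgG library gave no spread of its own.

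The 6 genes and the 4 lists were chosen with earlier results of these data known. Lists matched symbols or product phrases, and 13 genes of another function by product name were left out. By rule the text names the 6 genes, the called list genes with the largest change in each direction, and the 2 genes nearest in pattern to each of the 6. Other list genes were named after their values were seen. Alternatives were library totals, no filter, DESeq2 1.42.0, correction of each library for length and GC, or for length, GC and abundance (natural splines of 4 degrees of freedom, 6279 genes), leaving out each replicate, the 2 groups compared alone, and a replicate block.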

Additional observations from a re-analysis of the deposited data

How the results depend on the processing

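All 6 genes stayed lower with Slr1p than in input under the 11 alternatives, as did bip1 and pdi1 on their sides against IgG and the 5 called genes in IgG against input under 10. Counts over all genes stayed within 1.5 times. Replicate numbers are shared by the Slr1p and input titles, but their deviations had a correlation of -0.065 over genes, so they were not taken as pairs. With the replicate block, bip1 was at -2.53 and ire1 at -0.66, 2126 genes were higher and 2081 lower, and no call of the 6 changed.

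Against IgG, cnx1 was called higher with DESeq2 (0.37), after correction for length and GC (0.63) and with only the 2 groups compared (0.40). Leaving out 1 library, cnx1 ranged from 0.37 to 0.41. The value of sec63 was 0.047 after correction for length and GC, and it was called lower at -0.29 with only the 2 groups compared. Leaving out 1 library, sec63 ranged from -0.35 to -0.26, sec61 from 0.59 to 0.63 and ire1 from -0.58 to -0.50. After correction for length and GC ire1 was at 0.42, and at 0.33 when abundance was corrected too. In IgG against input ire1 was called at -1.05 and -0.995 after these 2 corrections. The fits without an input library took the spread from the Slr1p pair alone, as did the fit of only the Slr1p and IgG groups. Those without an Slr1p library took it from the input pair alone. The cause of the other changes was not tested. The single IgG library, with the fewest counts, limits every value against it. Of the 13 left-out genes 7 were of the folding list. Keeping them, a step added after the data were seen, gave 6 higher and 15 lower of 23 folding genes with Slr1p against input. With the left-out genes kept in the other lists, the counts were 8 and 13 of 27 for translocation and 1 and 22 of 25 for N-glycosylation. For ER-associated degradation they were 4 and 10 of 18.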
